A study of Mus musculus with 4 samples.

Results

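Multi-exon incomplete splice match (ISM) isoforms are spliced transcripts whose exon junctions match a consecutive stretch of an annotated transcript but leave out junctions at its start, at its end or at both. They were taken as every entry of the isoform table that carries the ISM class and is drawn with at least 2 exons, which gave 32615 of the 68012 isoforms (48.0%) and covered 6607 of the 10482 genes in the table. The choice used the structure of the isoforms and no expression value. The study read full-length cDNA of single mouse cells on the PacBio platform, from the egg to the blastocyst, with a cell barcode and a unique molecular identifier (UMI) on each molecule. Eggs and embryos were of the strain DBA/2J x C57BL/6J per the labels. The study's methods give superovulated C57BL/6J females of 6 to 8 weeks and DBA/2NCrl males, a DBA/2 substrain that differs from the labelled one, and oocytes of unmated females, which are C57BL/6J alone, followed by zygotes and embryos taken at set hours after hCG. The mouse embryonic stem cells were male E14 Tg2A cells per the methods. For the eggs and embryos the methods describe no altered gene and no treatment beyond the superovulation of the females.

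The cells used here came from 10 oocytes, 9 zygotes, 5 early 2-cell (E2C) embryos, 6 late 2-cell (L2C) embryos, 5 4-cell, 4 8-cell and 4 16-cell embryos, 43 in all with 121 cells. A further 22 32-cell, 13 blastocyst and 5 mouse embryonic stem cells (mESC) name no embryo in the table, so they are given as ranges and medians and entered no test. The isoform table held 3385 to 248254 UMIs per cell, with the most in oocytes and zygotes. Shares were therefore computed after every cell had been thinned at random to 3000 isoform UMIs. The summed level of 5 oocyte marker genes fell from a median of 1918 copies per 100,000 UMIs in oocytes to 79.9 in L2C cells. After L2C the median did not keep falling. It was 106 at the 4-cell stage, then 55.1 and 112 (8-cell, 16-cell), and 13.0 for the 32-cell group. Blastocysts had a median of 132 and mESC one of 66.0. The source of these late copies was not tested. The summed level of the 4 pluripotency markers was 14.9 in oocytes and 472 in 8-cell cells. Of 6 markers of cumulus cells, which surround the egg, 4 were in the gene table and their sum stayed at or under 5.20 copies in every cell of these stages except mESC. The column names give no sequencing run. For oocytes and zygotes a number was taken from the study's cell list by the name of the cell. Reading that number as the sequencing run is an inference, and it is called the run below. For embryos from E2C to 16-cell the run was not known, so run and stage cannot be told apart there.

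An mRNA is normally read from a transcription start to a cleavage site, and cleavage follows a short poly(A) signal, most often AATAAA or ATTAAA. A long-read transcript that lacks the first exons can come from an inner promoter or from an incomplete cDNA, and one that lacks the last exons can come from cleavage within the gene or from priming on a stretch of A. In mouse development the egg is transcriptionally silent and lives on stored maternal mRNA, zygotic transcription starts in the 1-cell embryo and rises sharply in the 2-cell embryo, and maternal mRNA is cleared over the same time.

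The last bases of 6 members that stopped short of the gene's end are printed first, because they show the transcript sequence at which the reads of these members ended. The isoforms were read from GENCODE M21 transcripts on GRCm38 (mm10), 5′ to 3′ in the direction of transcription, and capitals mark AATAAA or ATTAAA. Each of the 6 ended in an exon before the last one, and its values across stages are given further on.

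Rdx PB.75793.6, chr9:52073251-52073280, plus strand: cagatcgaagagcaaacagtgaaagcccag

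Hsp90aa1 PB.18355.252, chr12:110694238-110694267, minus strand: aagaagaaaaggagtctgatgataaacctg

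Hsp90aa1 PB.18355.238, chr12:110694134-110694163, minus strand: aaggaaaagtacattgatcaagaagaactc

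Npm2 PB.24476.54, chr14:70648264-70648293, minus strand: ggtggctccccagaagcagatgagcatagc

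Sfr1 PB.39642.4, chr19:47733780-47733809, plus strand: ctcccaaaggagtctgagaatgcgatcatt

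Mphosph8 PB.23968.13, chr14:56673984-56674013, plus strand: aaaaaAATAAAgtgcaaagaagagacaagt

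Only the Mphosph8 isoform held a signal in these bases, and the other 5 held none in their last 50 bases either. Members that were not short at the 3-prime side are shown beside them. The end could be read in 6 of the named ones (Tgfb2, B020004C17Rik, Ctsa, Alox12, Bhmt and Ndufa4). A signal stood in the last 50 bases of all of these but B020004C17Rik, and in the last 30 bases of Ctsa alone, so the short stretches printed here do not separate the groups. The Ctsa isoform, with a signal, and the B020004C17Rik isoform, without one, are given.

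Ctsa PB.45152.140, chr2:164839555-164839584, plus strand: ttctggaATTAAAtcgggtatagcttccaa

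B020004C17Rik PB.23994.28, chr14:57017526-57017555, plus strand: tctattattttgacataactctttttatgt

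In most genes an ISM isoform was a transcript that kept the 3-prime end and lacked the first exons. Each member was set against the longest full splice match (FSM) isoform of its gene, an isoform that has all junctions of an annotated transcript. This was possible for 26580 members of 4988 genes, while 5543 members of 1556 genes had no multi-exon FSM isoform in the table and 492 did not overlap theirs. The start lay more than 100 bases inside the FSM isoform in 90.9% of compared members, at a median of 10617.5 bases of genome downstream. The end lay more than 100 bases short in 30.0%, with a median of 7 bases, and 51.1% of the ends fell within 10 bases of the FSM end. The other multi-exon FSM isoforms of the same genes, 10635 in number, had the opposite layout, with 35.5% of starts and 65.2% of ends short. The longest FSM isoform was chosen for its length, which favours a shortfall of both sets at one side or the other. Even so, 3.95% of the compared members and 15.6% of the other FSM isoforms were short at neither side.

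A limit of 100 bases at each side gave 4 groups. In all, 17543 members (66.0%) were short at the 5-prime side alone, 6608 (24.9%) at both sides, 1378 (5.18%) at the 3-prime side alone and 1051 (3.95%) at neither side. Counted by absent junctions in place of bases, over the 23815 members whose junctions all lay in the FSM isoform, 93.3% lacked junctions at the 5-prime side alone, 5.82% at the 3-prime side alone and 0.915% at both. Of the 6220 such members that were short at both sides by the base limit, 5702 (91.7%) lacked no junction at the 3-prime side. Members were 1169 bases long at the median (quartiles 802 and 1636), compared with 1466.5 for multi-exon FSM isoforms, and reached a median of 52.0% of the length of the longest FSM isoform. They held a median of 12 UMIs per isoform over all 161 cells, where FSM isoforms held 23, and 1032801 UMIs together. The gene with the most members was Tbc1d15, which codes for a GTPase-activating protein of Rab proteins, with 59. Another 1688 genes had 1 member.

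**Figure D1:**
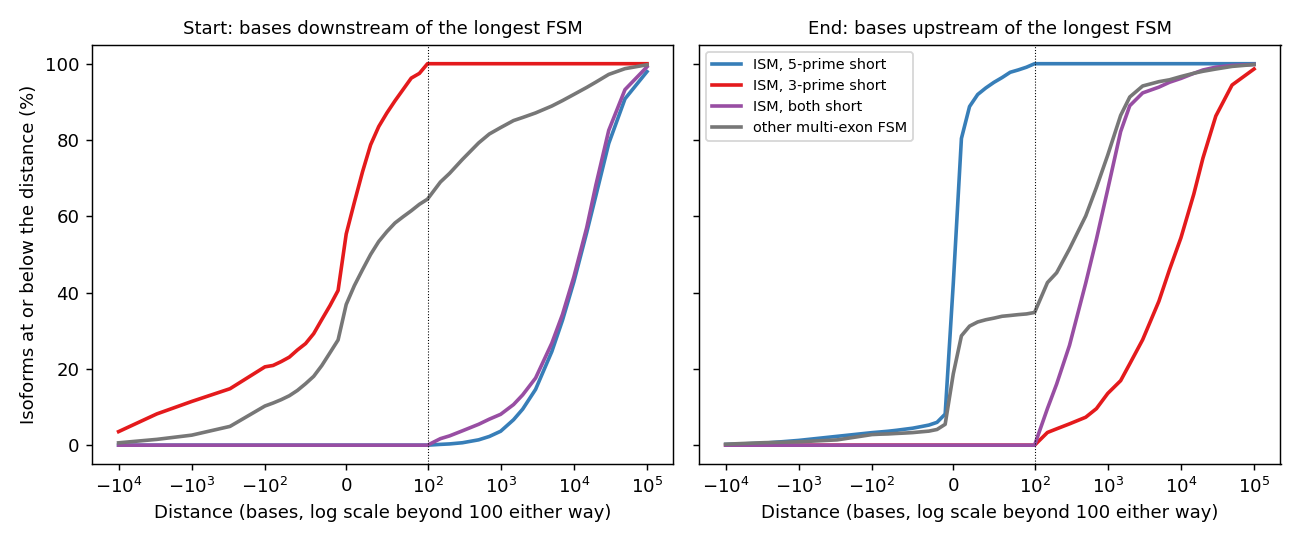
Cumulative share of isoforms (%) by distance in bases from the longest FSM isoform of the gene, for starts (left, positive values lie downstream) and ends (right, positive values lie upstream), linear within 100 bases and on a log scale beyond, with the 100-base limit dotted. ISM isoforms short at the 5-prime side (17543) end at most 100 bases upstream by definition, and 3.29% of them end 100 bases or more beyond the FSM end, those short at the 3-prime side (1378) end a median of 8205 bases upstream, and other FSM isoforms (10635) are grey.

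The members short at the 3-prime side alone, from 841 genes, are described next. They were chosen for a start that was not short of the FSM isoform and an end that was, so the nearness of their ends to annotated ones and the codons they held follow in part from that choice. Their start lay within 100 bases of a GENCODE start in 80.6%, against 10.2% of members short at the 5-prime side and 74.8% of the longest FSM isoforms. Of 1317 in coding genes, 82.2% held the annotated start codon and not the stop codon, and of 17279 members short at the 5-prime side 95.8% held the stop codon and not the start codon. A total of 703 (51.0%) ended in an earlier exon of the FSM isoform, 473 (34.3%) in an intron and 202 (14.7%) in the last exon. They spanned a median of 36.9% of the FSM length, and 29.8% ended within 100 bases of any GENCODE end, where members short at the 5-prime side reached 85.3% and FSM isoforms 80.3%. AATAAA or ATTAAA stood in the last 50 bases of 23.2% of the 909 whose end could be read from a GENCODE transcript. An end in an intron of the FSM isoform could be read only where another GENCODE transcript covers it. The 23.2% thus describes the ends that were read and not all 1378 members of the group. The same was found in 85.4% of 13449 members short at the 5-prime side, in 76.5% of 2864 FSM isoforms, and in 3.52% of all 50-base windows of coding transcripts of the host genes. Both hexamers were searched on the transcript strand only. At least 60% A in the 20 bases after the end occurred in 14.6% of 581 members short at the 3-prime side, in 2.65% of 5854 short at the 5-prime side and in 1.93% of 1504 FSM isoforms. These are descriptions of the structures and carry no test.

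From oocyte to 16-cell, ISM isoforms had their highest mean share of UMIs in early 2-cell embryos. At 3000 UMIs per cell they made up 15.9% ± 1.16 (SD, n = 10) of isoform UMIs in oocytes and 16.0% ± 1.18 (n = 9) in zygotes. The 5 E2C embryos held 16.0%, 18.1%, 19.7%, 19.8% and 23.8%, with a mean of 19.5% ± 2.89. The 6 L2C embryos ran from 11.5% to 17.9% with a median of 15.3%. The 4-cell embryos held 8.33%, 8.39%, 10.0%, 16.1% and 16.2%, so 3 of the 5 lay below every oocyte, zygote and 2-cell embryo. The 8-cell embryos held 9.23%, 12.5%, 13.7% and 14.2%. The 16-cell embryos held 7.96%, 8.33%, 14.9% and 19.2% and had the largest SD of these stages, 5.42 points. Single cells spread from 10.7% to 35.1% (median 18.1%) in the 32-cell group, from 7.74% to 29.1% (median 11%) in the blastocyst group and from 6.44% to 7.41% (median 7.13%) in mESC. The 32-cell median was thus near the E2C mean and above the means of the other stages.

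The rise from zygote to E2C was 3.46 percentage points (exact permutation test over embryos, adjusted p = 0.0210 over 21 tests) and the fall from E2C to L2C was −4.49 points (exact permutation, adjusted p = 0.0404). The embryos of neighbouring stages overlapped in both comparisons. The other 4 steps did not pass (exact permutation, adjusted p of 0.252 to 0.943), and neither did oocytes and zygotes against all later embryos (permutation, adjusted p = 0.252). The share of a cell's gene UMIs that reached the isoform table moved in the opposite direction, with means of 65.0% in zygotes, 56.8% in E2C and 68.2% in L2C. With all gene UMIs as the denominator the rise was 0.491 points and the fall −0.753 points, both with an exact permutation adjusted p of 0.366, so neither call held. The fall also did not pass when E2C embryo 1, 2, 3 or 5 was left out, at −4.41, −3.40, −4.42 and −4.84 points (exact permutation, adjusted p of 0.0889, 0.0884, 0.0889 and 0.0778), or without ribosomal protein genes (−3.69 points, exact permutation, adjusted p = 0.136). These p-values measure the spread between embryos, which may share a mother or a day. Among the cells of each stage the ISM share also ran against the share of gene UMIs in the isoform table. The rank correlations were −0.782 in oocytes, −0.833 in zygotes, −0.685 in E2C, −0.845 in L2C, −0.934 in 4-cell, −0.918 in 8-cell and −0.931 in 16-cell cells. In E2C embryos 1 to 5 the sister cells held 19.7% and 19.9%, 19.8% and 27.9%, 15.7% and 23.8%, 15.5% and 16.5%, and 16.8% and 19.3%. The cause of these differences was not tested.

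**Figure D2:**
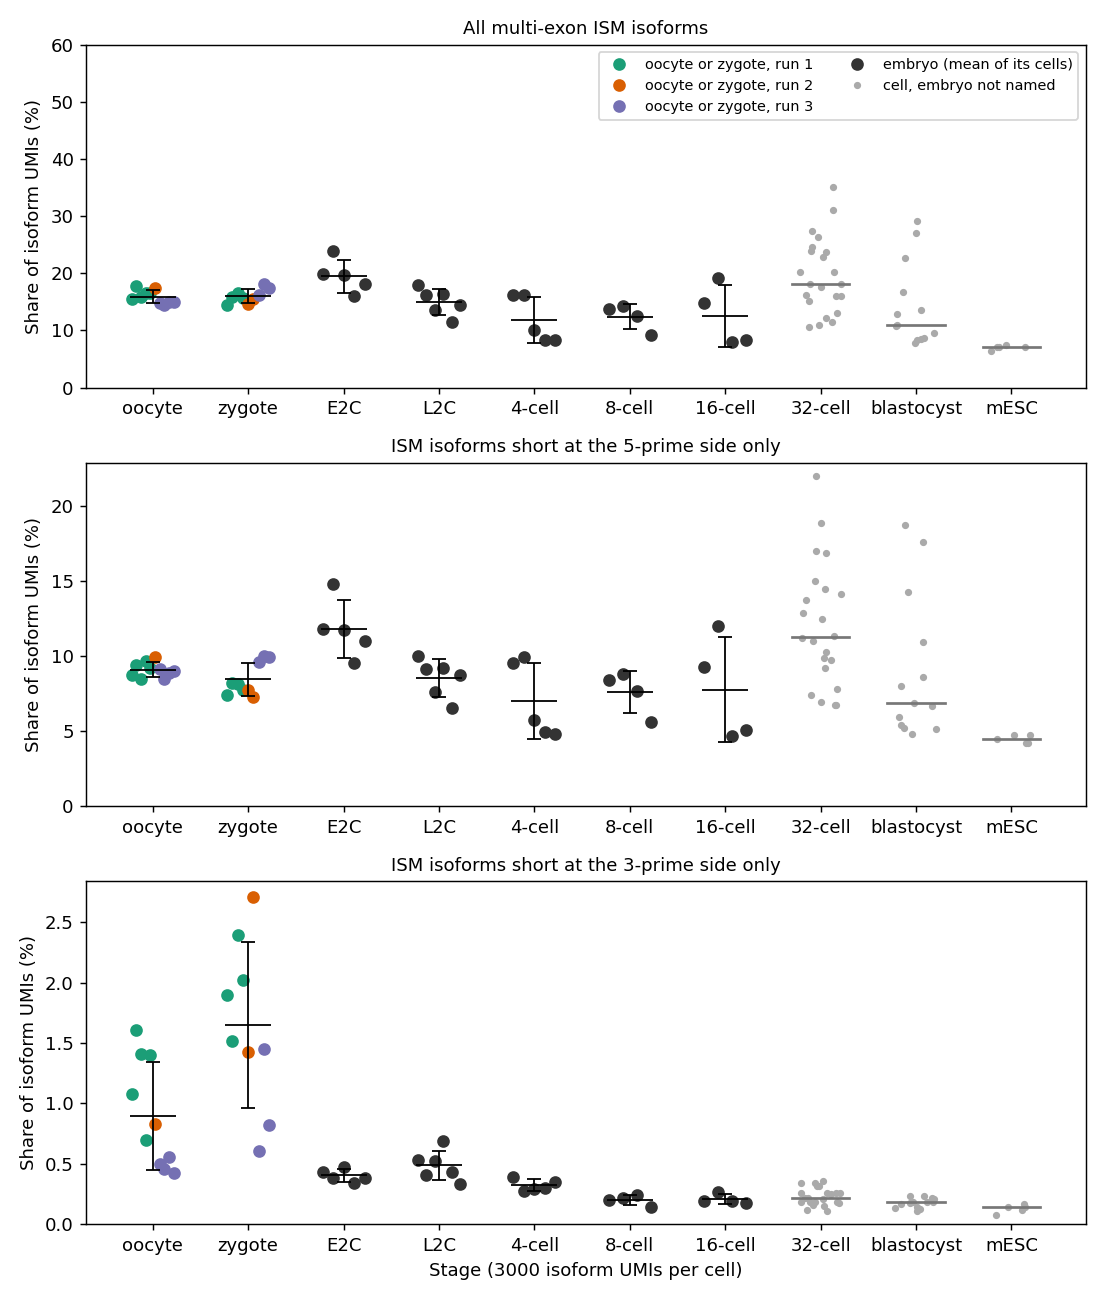
Share of isoform UMIs (%) at 3000 UMIs per cell by stage, for all multi-exon ISM isoforms (top), those short at the 5-prime side only (middle) and those short at the 3-prime side only (bottom). Large points are oocytes, zygotes (coloured by run) and embryos, with mean and SD, and small grey points are single cells with their median. In the bottom plot the 9 zygotes lie between 0.607% and 2.71%, and every embryo from E2C onward lies under the lowest zygote except L2C embryo 4 at 0.687%.

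Distinct members per cell had their highest mean in E2C at equal depth, among the stages from oocyte to 16-cell. This count depends on the ISM share itself, so it is not separate support. A cell of 3000 UMIs held 424 ± 28.9 (n = 10) of them in oocytes, 429 ± 28.2 (n = 9) in zygotes, 527 ± 72.0 (n = 5) in E2C, 428 ± 66.5 (n = 6) in L2C and 328 ± 131 (n = 4) in 16-cell embryos. Without thinning the order differed, with 8182 in oocytes, 9762 in zygotes and 5002 in E2C.

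The members short at the 5-prime side rose and fell at the same steps. Their share was 9.06% ± 0.497 (n = 10) in oocytes and 8.43% ± 1.09 (n = 9) in zygotes. The E2C embryos held 9.53%, 11%, 11.7%, 11.8% and 14.8%, and the L2C embryos ran from 6.52% to 10.0%. The rise was 3.33 points (exact permutation, adjusted p = 0.0210) and the fall −3.25 points (exact permutation, adjusted p = 0.0273). Without E2C embryo 2 the fall was −2.49 points (exact permutation, adjusted p = 0.05). In later stages the means were 6.97%, 7.60% and 7.74%, with no step that passed.

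The members short at the 3-prime side behaved in another way and were highest in zygotes. The 10 oocytes ran from 0.427% to 1.61% with a median of 0.763%, and the 9 zygotes from 0.607% to 2.71% with a median of 1.52%. The E2C embryos held 0.340%, 0.383%, 0.387%, 0.433% and 0.477%, below every zygote. The share rose by 0.753 points from oocyte to zygote (exact permutation, adjusted p = 0.0340) and then dropped by 1.24 points to E2C (exact permutation, adjusted p = 0.0210), a 4.08-fold lower mean. The 4-cell embryos held 0.273% to 0.393%, and all 4 8-cell embryos, at 0.147% to 0.244%, lay below them (−0.119 points, exact permutation, adjusted p = 0.0278). With only isoforms seen in at least 5 cells after thinning, that step was −0.0183 points (exact permutation, adjusted p = 0.616). The step from L2C to the 4-cell stage was −0.164 points (exact permutation, adjusted p = 0.0404). Leaving out any of the 5 4-cell embryos ended both calls, at −0.132 to −0.102 points for the 8-cell step and −0.182 to −0.152 points for the 4-cell step, with fewer embryos to permute. The 8-cell step was also not called without 8-cell embryo 4 (−0.101 points, exact permutation, adjusted p = 0.0833). Oocytes and zygotes together averaged 1.25% (n = 19) against 0.341% (n = 24) in later embryos, with a permutation p of 1e-05 (adjusted p = 0.00021), the smallest value open to 100000 resamples. The pattern of 3-prime partial transcripts in eggs and zygotes was known from these data before the members were measured, so it is not independent support.

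The run moved with this share in oocytes and zygotes. The oocytes of run 1 held 0.693% to 1.61%, the single oocyte of run 2 held 0.833% and the oocytes of run 3 held 0.427% to 0.553%. Zygotes of runs 1, 2 and 3 held 1.52% to 2.39%, 1.43% to 2.71% and 0.607% to 1.45%. The mean was higher in zygotes within each run, by 0.719 points in run 1, 1.23 points in run 2 and 0.474 points in run 3, and no single run passed after adjustment (exact permutation, adjusted p of 0.0556, 0.875 and 0.0667). In run 3, where the design of 4 against 3 allows no exact p under 0.0286, every zygote lay above every oocyte. With the oocytes and zygotes of run 3 alone the mean was still 0.345 points above that of later embryos (permutation, adjusted p = 0.0113).

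Where these members ended separated 2 time courses, a division that was added after the shares had been seen. Those that ended in an earlier exon made up 0.527% ± 0.334 (n = 10) of UMIs in oocytes and 1.12% ± 0.554 (n = 9) in zygotes. The E2C embryos held 0.103%, 0.143%, 0.153%, 0.227% and 0.240%, below every zygote (−0.948 points, exact permutation, adjusted p = 0.0101 over 14 tests). In L2C they held 0.0400% to 0.117%, a further −0.100 points (exact permutation, adjusted p = 0.0101). Those that ended in an intron had a second maximum. They held 0.280% ± 0.121 (n = 10) in oocytes, 0.439% ± 0.152 (n = 9) in zygotes and 0.113% to 0.167% in the 5 E2C embryos. The 6 L2C embryos, at 0.213% to 0.473%, all lay above the E2C embryos (0.196 points, exact permutation, adjusted p = 0.0101). The 4-cell embryos held 0.180% to 0.247%, and the 8-cell embryos, at 0.0724% to 0.0975%, all lay below those (−0.119 points, exact permutation, adjusted p = 0.0159). Members that ended in the last exon stayed between means of 0.0416% and 0.0947% at every stage from oocyte to 16-cell.

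The 3-prime-short members were also divided by the letters at their end. Only members whose end could be read from a GENCODE transcript entered this division. Mean shares of isoform UMIs without a signal were 0.501% in oocytes, 1.04% in zygotes, 0.187% in E2C and 0.0639% in L2C. The means with a signal were 0.115%, 0.186%, 0.0727% and 0.0600%. All 3-prime-short members together had means of 0.895%, 1.65%, 0.404% and 0.487% at these stages. Most of their share in L2C was thus not divided, and the lower means of both parts there do not describe the whole group. Where the bases after the end could be read, ends followed by at least 60% A held 0.0800% in oocytes, 0.159% in zygotes and 0.0140% in E2C, and the other ends 0.309%, 0.619% and 0.197%. The part that priming on A stretches has in the shares was not tested.

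**Figure D3:**
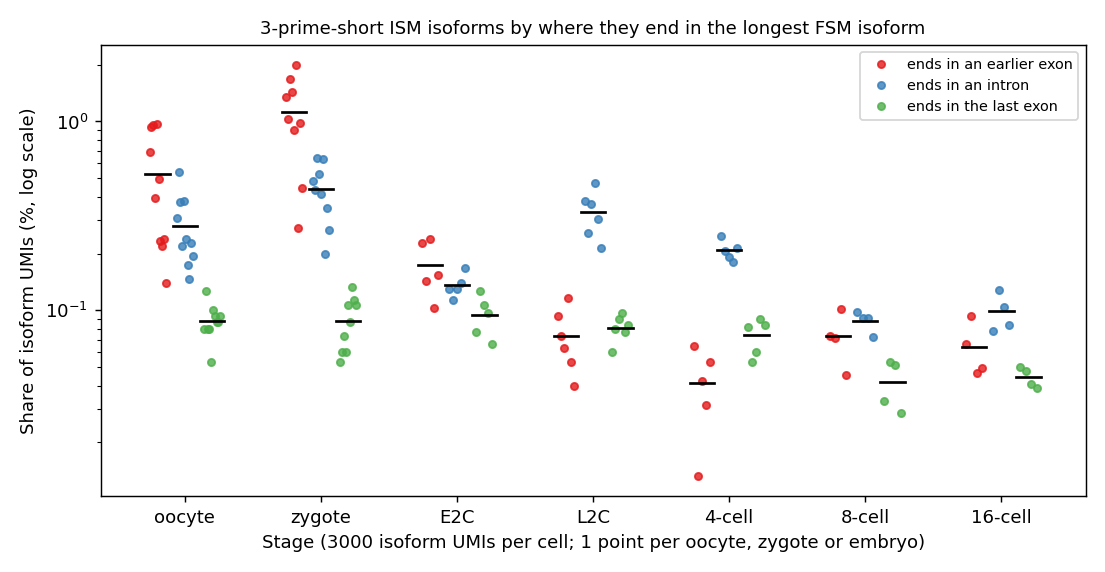
Share of isoform UMIs (%, log scale) held by 3-prime-short ISM isoforms at 3000 UMIs per cell, split by whether they end in an earlier exon, an intron or the last exon of the longest FSM isoform, with 1 point per oocyte, zygote or embryo and lines at the means. Ends in earlier exons drop from a mean of 1.12% in zygotes to 0.173% in E2C and 0.0733% in L2C, and ends in introns rise from 0.136% in E2C to 0.332% in L2C.

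Changes of single members were tested with limma across all isoforms, on log2(value + 1) of embryo means, with a call at a log2 change over 1 and p under 0.01. The filter of at least 1 copy per 100,000 UMIs in 4 embryos left 29409 isoforms, of which 12431 were members. The other members were not tested, and the counts speak for the more abundant ones only.

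The most calls fell at the late 2-cell stage. From E2C to L2C, 939 members rose and 1411 fell (7.55% and 11.4% of members tested), against a background of 12.9% rising and 13.1% falling among all isoforms. Most members of each gene list were not called. Of 154 tested members of oocyte genes 55 fell and 1 rose, with a median log2 change of −0.54. Of 165 tested members of ribosomal protein genes 50 rose and none fell at the call threshold, with a median of 0.83. Among members of genes for cleavage and polyadenylation 17 of 47 rose and 1 fell, and among those for translation factors 42 of 256 rose and 5 fell. The median over all tested isoforms at this step was 0.

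From zygote to E2C, 252 members rose and 331 fell (2.03% and 2.66%), close to the 2.23% and 2.94% of all isoforms. The falls were spread unevenly over the groups, with 154 of 519 tested members short at the 3-prime side (29.7%) and 53 of 7171 short at the 5-prime side (0.739%). Among those with an end in an earlier exon 115 of 265 fell (43.4%), and among those with an end in an intron 38 of 186 (20.4%). Members could pass the filter through oocytes and zygotes alone, where the 3-prime-short share was highest. These counts by group thus restate the drop of that share and are not separate support. From oocyte to zygote 87 members rose and 25 fell (0.7% and 0.201%, background 1.16% and 0.32%), and 42 of the 87 were short at the 3-prime side. Of the 519 tested, 8.09% thus rose, which is likewise not separate from the rise of their share. With the sequencing run as a term, 40 members rose and 10 fell at this step.

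Calls at the remaining steps were most numerous at the 8-cell stage. From L2C to the 4-cell stage 38 members rose and 220 fell (0.306% and 1.77%, background 2.61% and 1.68%). From the 4-cell to the 8-cell stage 460 rose and 141 fell (3.7% and 1.13%, background 3.63% and 4.3%). There, 81 of 165 tested members of ribosomal protein genes rose and 1 fell, 45 of 256 of translation factors and 37 of 188 of chaperones rose, and none of either fell at the call threshold. Ribosomal protein genes have many processed pseudogenes, so their counts are less certain. From the 8-cell to the 16-cell stage 102 rose and 65 fell (0.821% and 0.523%, background 1.05% and 0.921%).

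Of 186 tested members with ends in introns, 34 rose from E2C to L2C (18.3%) and 15 fell (8.06%), against 12.9% and 13.1% of all isoforms. Of the 265 with an end in an earlier exon 4 rose (1.51%) and 11 fell (4.15%). From the 4-cell to the 8-cell stage 0 of the 186 rose and 10 fell (5.38%), against 3.63% and 4.3% of all isoforms. The difference between the groups was not tested. Members could pass the filter through L2C embryos alone, and the shares by end location were seen first, so these counts are not separate support. The largest rise of this kind was that of Foxr1.

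Single members are described by the rule for named isoforms, which took called members of at least 10 copies per 100,000 UMIs whose embryos did not overlap between neighbouring stages, and the most abundant members. Their levels are copies per 100,000 isoform UMIs, and changes are on the scale of log2(copies + 1), on which low levels are understated and a level of 0 depends on the pseudocount.

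Rdx codes for radixin, which links actin filaments to the plasma membrane. Its isoform PB.75793.6, at chr9:52047112-52073280, stopped 15458 bases before the FSM end, lacked the last 4 junctions and had 1270 bases where the FSM isoform has 4206. It held 3.40 to 51.4 copies in oocytes (median 22.7) and 18.7 to 65.3 in zygotes (median 31.0), and it was at 0 in all 5 E2C embryos. The change was −5.11 ± 0.42 (SE, limma, adjusted p = 5e-14). A further Rdx isoform, PB.75793.5, which ended in an intron, held 29.1 to 103 copies in zygotes and at most 2.43 in E2C.

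Hsp90aa1 codes for a cytosolic HSP90 chaperone and had 44 members among its 51 isoforms. PB.18355.252 at chr12:110694238-110696486 stopped 3829 bases early and lacked 6 junctions. It held 10.2 to 74.0 copies in oocytes (median 45.7), 27.9 to 208 in zygotes (median 93.4) and 0 to 9.44 in E2C (median 2.18), a change of −5.03 ± 0.50 from zygote to E2C (limma, adjusted p = 2.4e-11). A second isoform of the gene had another course. PB.18355.20, which lacked the first 9 junctions and stopped 613 bases early in the last exon, held 1.37 to 10.0 copies in 4-cell embryos (median 3.28) and 20.2 to 45.2 in 8-cell embryos (median 37.5), a change of 3.18 ± 0.61 (limma, adjusted p = 0.00023). The other 4 isoforms printed with an end in an earlier exon were high in zygotes and low from E2C on. These were chosen after their values were seen and carry no test. In zygotes the median was 56.0 copies for Hsp90aa1 PB.18355.238, 26.1 for Npm2, a histone chaperone of the egg, 26.7 for Mphosph8, a chromodomain protein of the HUSH silencing complex, and 21.0 for Sfr1. In E2C their highest values were 6.34, 6.55, 2.91 and 2.70 copies. The 20 bases after the end held 70% A for Sfr1, 50% for Mphosph8 and Hsp90aa1 PB.18355.238, and 35% for Hsp90aa1 PB.18355.252.

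The named members that rose from zygote to E2C came from Ttk and Tgfb2. Ttk codes for a kinase of the spindle checkpoint, and its isoform PB.77127.51 lacked the first 15 junctions. It held 0 to 3.18 copies in zygotes (median 1.53), 8.38 to 16.5 in E2C (median 10.5) and 0 to 1.33 in L2C, with a rise of 2.47 ± 0.34 (limma, adjusted p = 3.5e-07). Tgfb2 codes for a secreted TGF-beta ligand. Its isoform PB.5124.20, whose start and end were both within 100 bases of those of the FSM isoform, held 0.649 to 10.4 copies in zygotes and 11.9 to 26.2 in E2C, a rise of 2.18 ± 0.40 (limma, adjusted p = 0.0001).

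At L2C the largest rises were in B020004C17Rik and Foxr1. B020004C17Rik PB.23994.28 at chr14:57016535-57017555 held 0 to 4.65 copies in E2C (median 0.945), 56.6 to 173 in L2C (median 109), 38.4 to 84.7 in 4-cell embryos and at most 1.83 in 8-cell embryos. The rise was 5.58 ± 0.49 (limma, adjusted p = 5.1e-14) and the later fall −5.04 ± 0.49 (limma, adjusted p = 4.4e-11). Both pairs of stages were free of overlap, as the rule for named isoforms required. Foxr1 codes for a forkhead transcription factor. PB.75525.136 at chr9:44435733-44441312 ended in an intron and held at most 0.834 copies in E2C, where 21.6 to 62.4 were found in L2C (median 29.2), a rise of 4.64 ± 0.41 (limma, adjusted p = 4.4e-14). Other members that ended in introns and were highest in L2C, chosen after their values were seen, held L2C medians of 10.7 copies for Sec61a2, 10.1 for Rbm39, 9.20 for Sike1 and 7.50 for Atm, and each was at or below 0.780 in every E2C embryo.

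The members lost at L2C included some of the most abundant of all. Mgst3 codes for a microsomal glutathione S-transferase, and PB.4493.7 at chr1:167372347-167377336 held 138 to 333 copies in oocytes, 174 to 289 in zygotes and 188 to 276 in E2C, then 0.965 to 16.2 in L2C. The fall was −5.94 ± 0.41 (limma, adjusted p = 1.6e-17). E330034G19Rik PB.22845.655 held 61.1 to 95.6 copies in E2C and 0 to 5.30 in L2C, a fall of −5.18 ± 0.53 (limma, adjusted p = 1e-11). H1foo codes for the linker histone of the oocyte, and PB.63789.707 fell earlier, from 96.0 to 311 copies in oocytes and 43.3 to 211 in zygotes to 2.74 to 13.4 in E2C. Cmya5 PB.21492.1 and Oog3 PB.54725.27 kept medians of 56.4 and 82.1 copies in E2C and had medians of 5.46 and 6.97 in L2C.

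The named members of later steps came from genes of varied function. Ctsa codes for the lysosomal protease cathepsin A, and its isoform PB.45152.140 lacked 1 junction. It held 0 to 11.7 copies in L2C, 16.0 to 51.7 in 4-cell and 43.3 to 96.0 in 8-cell embryos, a first rise of 2.25 ± 0.61 (limma, adjusted p = 0.027). Bhmt codes for betaine-homocysteine methyltransferase, and PB.21530.4 held 0 to 2.39 copies in 4-cell and 10.9 to 28.1 in 8-cell embryos, a rise of 3.18 ± 0.47 (limma, adjusted p = 3.2e-06). Cog4, for a subunit of a Golgi tethering complex, went the other way in PB.73404.54, from 14.0 to 44.5 copies in 4-cell to at most 3.58 in 8-cell embryos (−3.94 ± 0.48, limma, adjusted p = 2.8e-08). Alox12, for a lipoxygenase, had 5.56 to 16.2 copies of PB.12021.7 in L2C and 0 to 4.28 in 4-cell embryos (−1.53 ± 0.43, limma, adjusted p = 0.032). Tdh codes for threonine dehydrogenase, and PB.24218.24 held 0.535 to 6.51 copies in 8-cell embryos, 8.24 to 25.9 in 16-cell embryos (1.60 ± 0.41, limma, adjusted p = 0.032) and 18.2 to 45.0 in mESC. That call was lost without 8-cell embryo 2 (1.01, limma, adjusted p = 0.513). The 16-cell values of Alppl2 PB.2430.11 (7.36 to 15.5 copies) and Mcrip2 PB.32344.4 (0 to 8.19) did not differ from 8-cell values after adjustment (limma, adjusted p of 0.23 and 0.098). Hsp90ab1, for the other cytosolic HSP90, had the most abundant member from the 4-cell stage to the 16-cell stage, PB.33516.12, with medians of 104, 142 and 207 copies against 13.0 in oocytes.

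**Figure D4:**
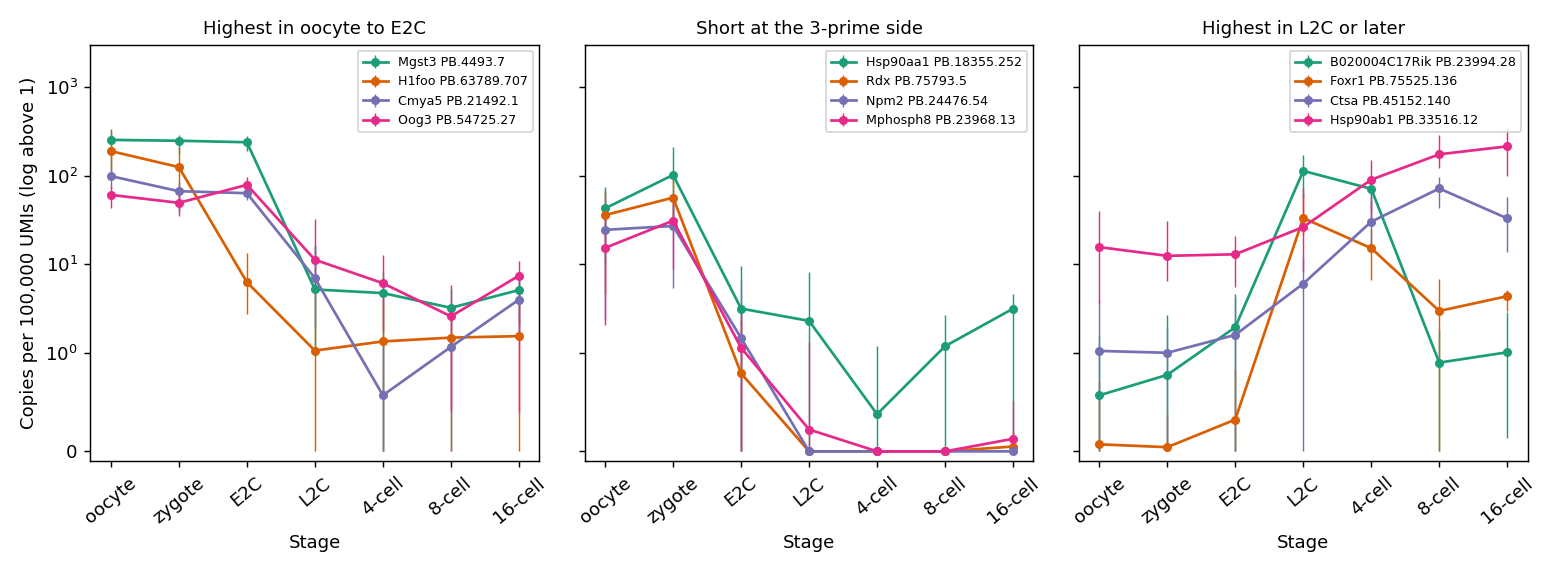
Copies per 100,000 isoform UMIs (linear to 1, log scale above) of named ISM isoforms by stage, as the mean with a bar from the lowest to the highest embryo. Abundant isoforms of the egg such as Mgst3 (left) drop at L2C or before, 3-prime-short isoforms such as Rdx PB.75793.5 (middle) drop at E2C from 29.1 to 103 copies in zygotes to at most 2.43, and those of later stages (right) include B020004C17Rik with 56.6 to 173 copies in L2C.

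The host gene lists differed in how much of their output was ISM. In the list of 26 chaperone genes ISM isoforms made up a median of 63.2% of UMIs in oocytes, 67.3% in zygotes, 55.3% in E2C, 42.7% in L2C, 30.6% in 4-cell, 46.7% in 8-cell and 38.4% in 16-cell embryos. Members short at the 3-prime side accounted for 25.7% of that list's UMIs in oocytes and 39.0% in zygotes, and for 2.32% in E2C and 0.350% in L2C. Hsp90ab1, Hsp90aa1 and Hspa8 held the most ISM UMIs of the list, so these shares need not hold for each of the 26 genes. Hsp90aa1 alone had 152 to 1002 UMIs per zygote, of which 88.2% to 97.8% were ISM. In ribosomal protein genes the ISM share stayed between 2.63% and 5.74% at every stage from oocyte to 16-cell. In the list of oocyte genes it went from 8.56% in oocytes to 3.29% in 16-cell embryos, in splicing factors it lay between 9.83% and 19.2%, in translation factors between 13.2% and 25.3%, in genes for cleavage and polyadenylation between 23.2% and 53.3%, and in actin and tubulin genes between 3.99% and 8.95%. In splicing factors and translation factors the 3-prime-short share was also highest in zygotes, at 3.22% and 4.84%. These medians over embryos were not tested.

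The share of ISM among all UMIs of a gene separates a change of isoform from a change of the gene. It was fitted with limma on arcsine values for 353 genes that had at least 10 UMIs in at least 3 embryos of every stage, with a call at an adjusted p under 0.05. From zygote to E2C the share rose in 10 genes and fell in 6 (2.83% and 1.7% of the 353). From E2C to L2C it rose in 9 and fell in 9 (2.55% each), and from L2C to the 4-cell stage it fell in 38 (10.8%). These counts moved when 1 embryo was left out. The 10 rises from zygote to E2C became 1 without E2C embryo 3, and the 6 falls became 1 without E2C embryo 1 and 2 without E2C embryo 4. The 9 rises from E2C to L2C became 4, 3 and 5 without E2C embryos 1, 4 and 5. The 38 falls became 0 without 4-cell embryo 4, 5 without 4-cell embryo 5, 24 without 4-cell embryo 3 and 58 without 4-cell embryo 1. From the 4-cell to the 8-cell stage it rose in 6 genes (1.7%) and fell in 2 (0.567%), and from the 8-cell to the 16-cell stage it rose in 1 (0.283%). With 1 embryo left out these ran from 0 to 21, from 0 to 2 and from 0 to 4, and the falls at the last step from 0 to 14. The 6 rises became 0 without 4-cell embryo 4 or 5 and 21 without 8-cell embryo 4. No gene was called from oocyte to zygote, where 20 had an unadjusted p under 0.05.

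Nasp codes for a histone chaperone that binds H1 and H3-H4. Its 25 members took 36.4% to 73.8% of its UMIs in zygotes, 91.2%, 92.0%, 94.1%, 100% and 100% in E2C, and 33.3% to 81.2% in 5 L2C embryos. High shares were also found later, with 91.7% in 4-cell embryo 2 and 92.1% in 16-cell embryo 2. The other embryos of these 2 stages held 23.8% to 80.5%. The rise to E2C was 41.5 points (limma, adjusted p = 0.000369) and the fall to L2C −39.7 points (limma, adjusted p = 0.00273), and neither pair of stages overlapped. Nap1l1, for a nucleosome assembly protein, rose and fell at the same steps with means of 40.9%, 68.1% and 33.3% (limma, adjusted p = 0.0341 and 0.0145), though the first call was lost without E2C embryo 1, 2 or 3. Eif2s2, for the beta subunit of initiation factor eIF2, fell from 35.0% ± 8.92 (n = 9) to 14.1% ± 6.90 (n = 5) at the same step (limma, adjusted p = 0.000369). Hmgb2, for a chromatin protein, fell from 53.9% ± 13.9 (n = 9) to 18.6% ± 19.3 (n = 3) (limma, adjusted p = 0.00233).

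At L2C, Acadm and Nsmce2 moved in opposite directions. Acadm codes for medium-chain acyl-CoA dehydrogenase. Members made up 86.7% to 100% of its UMIs in the 5 E2C embryos, and 30.0%, 36.4%, 38.5%, 41.7% and 85.7% in the 5 L2C embryos with enough UMIs, a change of −47.2 points (limma, adjusted p = 0.00195). A single isoform, PB.49988.3, held 91.1% of the ISM UMIs of the gene. Nsmce2 codes for the SUMO ligase of the SMC5/6 complex, and its share was 7.14% to 20.0% in E2C and 41.7% to 60.0% in L2C, without overlap (36.5 points, limma, adjusted p = 0.000826). That call was lost when the share was taken among ISM and FSM UMIs alone (adjusted p = 0.245). Ncl, for nucleolin, had means of 89.2% in zygotes, 76.5% in E2C and 41% in L2C, and its second step passed (limma, adjusted p = 0.0145). Btg4, an adaptor of maternal mRNA decay, had means of 12.6%, 24.0% and 10.0% in E2C, L2C and 4-cell embryos (limma, adjusted p = 0.0145 and 0.00534).

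In later steps Anapc10, for a subunit of the anaphase-promoting complex, had the clearest rise. Its share was 3.70%, 5.41% and 16.0% in 4-cell embryos and 30.0%, 38.7%, 41.4% and 41.6% in 8-cell embryos (29.6 points, limma, adjusted p = 6.0e-05), and PB.72292.64 held 80.7% of these UMIs. Eif4g2, for a translation initiation factor, had means of 85.7% ± 9.84 (n = 6) in L2C and 51.2% ± 23.2 (n = 4) in 4-cell embryos (limma, adjusted p = 0.00111), a call that was lost without 4-cell embryo 4 (adjusted p = 0.0751). Cenpn, for a centromere protein, rose to 45.0% in L2C, fell to 22.8% in 4-cell embryos and rose from 12.7% to 33.2% between the 8-cell and 16-cell stages (limma, adjusted p of 0.0145, 0.00111 and 0.0182). Hsp90aa1 stepped down from 94.7% in zygotes to 81.6% in E2C and from 62.0% in L2C to 43.4% in 4-cell embryos (limma, adjusted p = 0.0375 and 0.0391). The fall did not go on, with 43.2%, 60.6%, 69.2% and 71.3% in the 8-cell embryos and 24.6% to 83.7% in the 16-cell embryos. In Fbxo15 and Elp5, also taken by the rule, no step passed. Bub1b and Hnrnpu were almost wholly ISM, with means of 97.8% and 99.4% in zygotes.

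**Figure D5:**
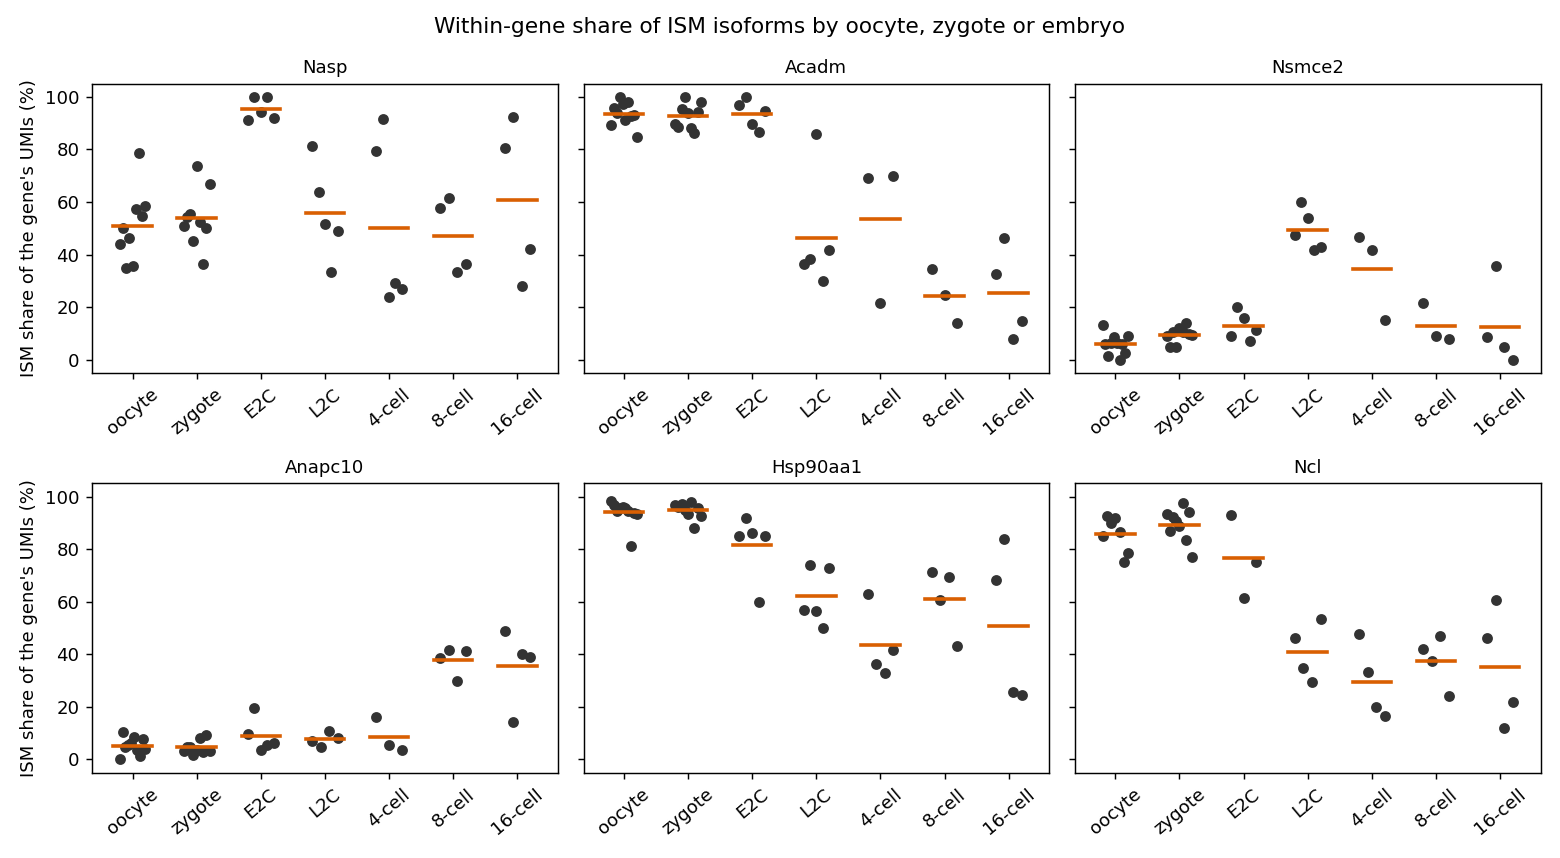
ISM share of the UMIs of 6 genes (%) by stage, with 1 point per oocyte, zygote or embryo of at least 10 UMIs in the gene and an orange line at the mean. Nasp has its highest mean in E2C at 91.2% to 100%, a range that 4-cell embryo 2 (91.7%) and 16-cell embryo 2 (92.1%) also reach. Acadm falls and Nsmce2 rises at L2C, and Anapc10 rises at the 8-cell stage. Hsp90aa1 and Ncl go down from means of 94.7% and 89.2% in zygotes up to the 4-cell stage. In 16-cell embryos they spread from 24.6% to 83.7% and from 11.9% to 60.7%.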

How the data were processed

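The authors deposited isoform and gene tables in copies per 100,000 UMIs (unit CPM here), and isoform coordinates on mm10. Per the methods, CCS reads were aligned with minimap2, collapsed with cDNA_Cupcake without merging isoforms that are shorter at the 5-prime side, and classed and filtered with SQANTI3, and isoforms seen in under 5 cells were removed, so rare members and stages with few cells are under-represented. Column names give the stage and embryo but match no GEO sample, and the replicate is the oocyte, zygote or embryo, as the mean of its cells. All 161 cell columns of these tables were used, and 16 columns of a further oocyte table, which match no sample's labels, were not used here. The names of oocytes, zygotes, 32-cell, blastocyst and mESC columns were found in the study's cell list with a number that was read as the run.

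The values were whole multiples of 1 UMI in every cell (100% within 0.1), so the UMI counts were recovered. Depth was 3385 to 248254 isoform UMIs per cell (median 29552). For shares each cell was thinned to 3000 isoform UMIs, with the mean of 5 draws. Stages were compared by two-sided exact permutation over embryos (100000 resamples for oocytes and zygotes against later stages), adjusted by Benjamini-Hochberg over 21 tests, and over 14 for end locations. Isoforms were fitted with limma 3.58.1 (R 4.3.3; trend and array weights, all 7 stages) on log2(value + 1), where at least 4 embryos had 1 copy. edgeR 4.0.16 on the recovered UMI counts called 150, 406, 3343, 8, 168 and 0 members over the 6 steps (adjusted p under 0.05, log2 change over 1), and limma gave 428, 720, 3291, 160, 572 and 97 at an adjusted p under 0.05. DESeq2 1.42.0 was another alternative. Python 3.11.15, numpy 2.4.6, pandas 2.3.3, scipy 1.17.1 and matplotlib 3.10.9 were used for the rest. The limma fit was tested on simulated data.

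Ends were compared within 100 bases on the genome. The last 50 bases were read from GENCODE M21 transcripts that contain the end, and the 20 bases after it where the transcript went on.

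Named isoforms were, at each step, up to 2 called rises and 2 falls at 10 or more copies without overlap of embryos, plus the most abundant per stage and the 10 most abundant overall. Named genes were up to 2 per direction by p with a change of at least 20 points, 7 genes the study names, and up to 3 per gene list by ISM UMIs. The members, gene lists and rules were chosen with earlier results of these data known.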

Additional observations from a re-analysis of the deposited data

Results flagged for a closer look

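The values of named isoforms in groups of 4 to 10 embryos were screened for a single value far from the rest of its group, in 38 groups, of which chance alone would mark about 1 in 20. Foxr1 PB.75525.136 stood at 62.4 copies per 100,000 in L2C embryo 4, the highest of 6, and Bhmt PB.21530.4 at 28.1 copies in 8-cell embryo 1, the highest of 4.

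The step from oocyte to zygote differed between sequencing runs for 2 of 3 shares tested. The ISM share moved by −0.831 points in run 1 and by 2.42 points in run 3, a difference of −3.25 points (exact permutation of run labels within stage over 4410 arrangements, p = 0.000907, adjusted p = 0.00272). The share of members short at the 5-prime side moved by −1.22 points in run 1 and 0.989 points in run 3, a difference of −2.21 points (exact permutation, p = 0.00748, adjusted p = 0.0112). For members short at the 3-prime side the difference was 0.245 points (exact permutation, adjusted p = 0.685).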

How the results depend on the processing

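No paired analysis was possible because the numbers in the column names count embryos within a stage and mark no shared litter or day. Among the main results, 219 values kept their side and size, 63 moved, 18 reversed, 18 lost and 3 gained the threshold, leaving aside left-out embryos. The cause was not tested for any of them. The comparison of intact and split oocytes and its alternative were not run, because those columns match no sample's labels. Changed members, rising then falling in step order from oocyte to zygote up to 8-cell to 16-cell: DESeq2 gave 32 and 16, 84 and 162, 123 rising, 5 and 20, 68 and 34, 4 and 0, with edgeR at 372 rising, 547 falling at the second step, and 165 and 36 at the last. A pseudocount of 0.5 gave 255 and 98, 452 rising and 541 falling at the second step, 70 rising at L2C to 4-cell, 213 falling at 4-cell to 8-cell, and 170 and 122 at the last, and a pseudocount of 5 gave 5 and 1, 6 and 46, 74 and 247, 4 and 2, 80 and 14, 4 and 1. Without array weights 87 rose at L2C to 4-cell and 53 at the last step, without the filter 56 rose at the last step, and with run as a term (chosen after seeing the data) 40 rose and 10 fell from oocyte to zygote.
With the FSM isoform of most UMIs as reference the groups were 78.7% short at the 5-prime side, 9.66% both and 6.56% neither. A limit of 200 bases gave 69.7%, 5.55% (3-prime), 20.3% and 4.41%, a limit of 50 bases 62.9%, 4.59% and 28.8% both, and the genome span 3.42% neither. In the last 40 bases 83.3% of the 5-prime group held a signal.
ISM share (points): summed UMIs gave −4.11 from E2C to L2C (adjusted p = 0.0606) and −0.522 from 8-cell to 16-cell. Gene UMIs gave −0.179 from oocyte to zygote, 0.491, −0.753 and −0.425 at zygote to E2C, E2C to L2C and 8-cell to 16-cell. Multi-exon isoforms as denominator gave −3.72 from E2C to L2C (adjusted p = 0.394), −0.182 and −0.173 at the last 2 steps. From E2C to L2C the change was −3.69 without ribosomal protein genes (adjusted p = 0.136) and −3.90 without the 20 host genes with the most ISM UMIs (adjusted p = 0.0909). Isoforms in 20 cells gave −0.312 and those in 5 cells after thinning −0.244 from oocyte to zygote, and thinning to 10000 gave −1.27 at the last step. The step from oocyte to zygote was −0.831 in run 1 and −2.35 in run 2.
5-prime share: 50 bases 0.0251, absent junctions 0.171, run 1 0.0579 and run 2 0.290 for oocytes and zygotes against later; −3.31 by junctions from E2C to L2C (adjusted p = 0.0505); −1.22 in run 1 (adjusted p = 0.0455) and 0.989 in run 3 from oocyte to zygote; −0.874 at the last step at 10000 UMIs. 3-prime share: 5 cells after thinning 0.0859 from E2C to L2C (adjusted p = 0.0346), −0.0183 and −0.00685 at the last 2 steps; −0.126 by junctions from L2C to 4-cell (adjusted p = 0.0952); −0.00082 at 10000 UMIs at the last step; 0.719, 1.23 and 0.474 in runs 1 to 3 from oocyte to zygote. Ends in introns from oocyte to zygote: 0.141 at 10000 UMIs (adjusted p = 0.0645), 0.158, 0.283 and 0.0861 in runs 1 to 3, and −0.0361 against later in run 3. Ends in earlier exons: −0.0308 from L2C to 4-cell without thinning (adjusted p = 0.0496), and 0.953 in run 2.
Within genes at 20 UMIs: 6 and 2, 2 and 3 at the 2 E2C steps, 17 falling, 18 and 1, and 0 rising in turn. Among ISM and FSM UMIs: 5, 5 and 0 rising at the E2C steps and the last.
Leaving out 1 embryo gave: ISM −5.36 to −3.40 (E2C to L2C; the call was lost without E2C embryo 1, 2, 3 or 5), −0.292 to 1.68 (4-cell to 8-cell), −2.02 to 1.72 (last step); 5-prime −3.81 to −2.49 and −1.27 to 1.17; 3-prime −0.182 to −0.152, −0.133 to −0.101 and −0.0169 to 0.0179 over the last 3 steps; introns −0.134 to −0.118; earlier exons 0.0225 to 0.0413 and −0.0192 to 0.000277; changed members 237 to 406 rising at zygote to E2C, 49 to 61 rising at L2C to 4-cell, 46 to 254 and 45 to 154 at the last step; genes 1 to 11 and 1 to 7, 3 to 8 rising, 0 to 58 falling, 0 to 21 and 0 to 2, 0 to 4 and 0 to 14. Without E2C embryo 4 the rises numbered 406, and without E2C embryo 3 only 1 gene rose. Alppl2, Tdh, Mcrip2 and Alox12 lost calls under some alternatives, a pseudocount of 5 among them for each of the 4, and Tdh also without 8-cell embryo 2.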

Other observations

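Genes that the study names for short or switching isoforms, with no test and with the share of a gene's UMIs held by ISM isoforms. Dnajc3, for an endoplasmic reticulum co-chaperone, had 10 or more UMIs in 2 zygotes, with a mean of 37.7%, and in 3 L2C embryos, with a mean of 1.96%, and in 2 4-cell embryos, with a mean of 0%. Sf3b2, for a subunit of the spliceosome's SF3B complex, held means of 83.9% in 4 oocytes, 89.2% in 7 zygotes, 77.3% in 2 E2C, 39.6% in 2 4-cell, 64.9% in 3 8-cell and 82.0% in 2 16-cell embryos. Srpk1, for a kinase of SR splicing proteins, held 64.3% in 1 zygote and means of 81.2% to 92.2% from E2C to the 16-cell stage. Cfdp1 held means of 9.72% to 17.9% at every stage from oocyte to 16-cell, and Cnot7, for a deadenylase of the CCR4-NOT complex, 5.44% to 14.6%.

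Among the other structural classes at 3000 UMIs per cell, single-exon FSM isoforms held a mean of 7.71% of UMIs in oocytes and 18.6% in L2C embryos, and multi-exon FSM isoforms 66.1% and 58.1%.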
